A study of Homo sapiens with 8 samples.

Results

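Replication origins that HCT116 cells kept without ORC2 and without ORC5, but that were not on the list without ORC1, are described here. An origin belongs to this set if it is on the WT list on chromosomes 1 to 22 and X, overlaps by at least 1 bp an origin on the ORC2KO list and an origin on the ORC5KO list, and overlaps no origin on the ORC1KO list. This holds for 3756 of 30195 WT origins, or 12.4% (95% Wilson interval 12.1% to 12.8%), and for 43.0% of the 8726 WT origins that were missing in ORC1KO cells. The reverse sets were smaller, with 1314 WT origins missing only in ORC2KO (4.35%) and 861 missing only in ORC5KO (2.85%), while 18250 WT origins were on all 4 lists. The ORC1KO list was also the shortest of the knockout lists. On these chromosomes it held 33530 origins, against 37811 for ORC2KO and 41328 for ORC5KO. The part of list length in the set sizes was not tested.

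The data come from SNS-seq, in which short nascent DNA is freed of other DNA by size selection and λ-exonuclease digestion and sequenced, so that reads pile up where replication starts. HCT116 is a colon cancer cell line of epithelial origin. The parental HCT116 p53-/- line is called WT, and the ORC1KO, ORC2KO and ORC5KO lines were made from it by CRISPR-Cas9 inactivation of ORC1, ORC2 or ORC5, with 2 replicates per line and 8 samples in all. The lines were grown in the same medium without treatment. Each knockout is represented here by a single established line, so that effects of the gene and of that line's own history cannot be told apart. The files hold no expression values, so the loss of each subunit was not checked here.

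The origin recognition complex, ORC, is the ATPase complex that loads the MCM2–7 helicase onto DNA in G1 phase. ORC1 is its subunit with a catalytic ATPase site that is assembled last and is degraded after G1 in human cells, whereas ORC2 and ORC5 belong to the core of the complex. Human origins have no fixed sequence. They are found preferentially near CpG islands, G-rich stretches that can fold into G-quadruplexes, and active promoters, and they often have an imbalance of G and C between the strands, the GC skew, which is (G − C)/(G + C).

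The members were chosen by presence or absence on the 4 lists, which were called from the same reads that the read tables count. Their read values are therefore given as a description with no test. The authors deposited lists of peaks found in both replicates and read counts with replicates merged, so no value has a spread between replicates, and intervals cover counting error or the number of origins only. Reads that are not independent molecules would make these intervals too narrow. The tables held 6416892 to 8523971 reads per line in their origins. All 3 tables use the same WT libraries, so the 3 comparisons share their WT reads and are shown side by side.

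Sequences of a few members are shown as examples of what such origins look like. They are 2 of the members with the lowest ORC1KO over WT ratio, not all of the lowest, and the 2 with the highest, in places free of UTRs. They are printed for the forward strand of hg38, as up to 300 bases around the midpoint of the origin. A sequence from a member with many reads in both lines follows. Capitals mark runs of at least 3 G or 3 C, the building blocks of G-quadruplexes on one strand or the other.
MICALL2 intron, lowest ratio, chr7:1454052-1454351: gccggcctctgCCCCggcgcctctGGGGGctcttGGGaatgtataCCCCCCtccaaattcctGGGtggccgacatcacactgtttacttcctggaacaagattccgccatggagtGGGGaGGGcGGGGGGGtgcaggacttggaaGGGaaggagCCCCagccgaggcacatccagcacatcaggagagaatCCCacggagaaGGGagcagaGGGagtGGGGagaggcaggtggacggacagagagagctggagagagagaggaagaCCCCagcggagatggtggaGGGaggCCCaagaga
ADAP1 and COX19 introns, among the lowest ratios, chr7:922547-922846: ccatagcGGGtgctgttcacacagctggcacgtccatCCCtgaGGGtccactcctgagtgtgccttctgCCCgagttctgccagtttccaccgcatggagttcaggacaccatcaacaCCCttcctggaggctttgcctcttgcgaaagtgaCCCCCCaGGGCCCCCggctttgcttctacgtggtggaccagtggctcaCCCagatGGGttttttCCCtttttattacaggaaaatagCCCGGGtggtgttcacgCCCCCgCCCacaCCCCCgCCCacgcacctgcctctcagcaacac
intergenic origin on chromosome 5, highest ratio, chr5:2219329-2219628: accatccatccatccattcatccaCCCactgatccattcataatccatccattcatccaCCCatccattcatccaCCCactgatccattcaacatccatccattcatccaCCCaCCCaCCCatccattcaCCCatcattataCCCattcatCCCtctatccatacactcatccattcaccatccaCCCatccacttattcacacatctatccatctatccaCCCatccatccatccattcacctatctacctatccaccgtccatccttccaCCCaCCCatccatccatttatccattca
PTPRN2 intron, highest ratio but one, chr7:157765714-157766013: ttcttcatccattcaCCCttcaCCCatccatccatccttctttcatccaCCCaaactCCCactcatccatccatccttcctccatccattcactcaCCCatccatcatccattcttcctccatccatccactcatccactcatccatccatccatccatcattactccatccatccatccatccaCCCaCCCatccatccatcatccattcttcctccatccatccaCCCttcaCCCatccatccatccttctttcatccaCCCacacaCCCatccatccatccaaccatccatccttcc
TTC34 intron, many reads in WT and ORC1KO, chr1:2798320-2798619: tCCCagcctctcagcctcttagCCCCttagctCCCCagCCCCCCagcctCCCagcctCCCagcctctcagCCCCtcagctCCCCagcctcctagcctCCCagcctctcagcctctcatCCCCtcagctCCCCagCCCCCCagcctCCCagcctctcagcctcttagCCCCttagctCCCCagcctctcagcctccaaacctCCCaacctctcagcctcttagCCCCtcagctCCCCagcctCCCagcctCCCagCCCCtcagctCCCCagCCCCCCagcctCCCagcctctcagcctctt

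The MICALL2 stretch mixes G runs and C runs on the same strand, with 11 runs of G and 6 of C. In the 2 sequences with the highest ratio nearly all of the G and C bases are C on the forward strand. The chromosome 5 sequence has 137 C and 3 G bases and the PTPRN2 sequence 150 C and 0 G, in arrays of ATCC-like units. The TTC34 sequence has 24 runs of C and 0 of G, with 171 C and 34 G bases, in a longer repeat of about 48 bp. These 5 sequences are not a measure of the whole set, and no difference between members with low and high ratios is read from them.

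Members were narrower than origins on all 4 lists and had fewer WT reads. Median WT reads per kb were 229 for members and 287 for origins on all 4 lists. They were 230 for those missing only in ORC2KO, 238 for those missing only in ORC5KO and 200 for those on the WT list alone. These reads were counted over joined origins of WT and ORC1KO but divided by the width of the WT origin alone. The median width of the joined origin was 455 bp for members and 433 bp for origins on the WT list alone. It was 628 bp for origins on all 4 lists, 565.5 bp for those missing only in ORC2KO and 593 bp for those missing only in ORC5KO. This raises the reads of sets on the ORC1KO list, also in the ranges of reads below, so no order of densities is read. The median width of members was 455 bp (interquartile range 380 to 572 bp), against 571 bp for origins on all 4 lists. In the table of WT and ORC1KO, a member had a median of 105 WT reads and 88 ORC1KO reads, against 163 and 163 for origins on all 4 lists. The share of WT origins that were members was 20.5% (18.6% to 22.5%) among origins with fewer than 75 WT reads, 7.71% from 150 to fewer than 200 reads, and 1.86% (1.45% to 2.38%) among those with at least 300. It was also 20.4% among WT origins narrower than 400 bp and 3.61% among those of at least 1000 bp. WT reads and width thus move with membership, and their part in the values below was not tested except where a range of reads is named.

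Absence from the ORC1KO list did not mean absence of reads. Reads were divided by the total of their line in the same table and given as RPM. A difference of at least 1.5-fold in RPM was counted as down or up, without a test. The number of ORC1KO reads at a member ranged from 34 to 1276. The median log2 fold of ORC1KO over WT was −0.31 (interquartile range −0.49 to −0.12), and it was −0.07 for origins on all 4 lists. For origins on the WT list alone it was −0.27, with 14.6% down by 1.5-fold. Origins missing only in ORC2KO had −0.31 in ORC2KO, with 19.9% down. Those missing only in ORC5KO had −0.10 in ORC5KO, with 2.67% down. By the 1.5-fold rule 584 members were down in ORC1KO, or 15.5%, where 3.95% of all origins in the table of WT and ORC1KO and 5.43% of the WT origins were down. The lists fix this direction to a large degree, so nothing further is read from it. Up by 1.5-fold were 22 members, or 0.59%, against 7.03% of all origins in the table, which include origins that are not on the WT list, and 1.93% of the WT origins. A further measure shows how close many members are to the called origins: 832 members (22.2%) had at least as many ORC1KO reads per kb as the median origin on the ORC1KO list, 238 reads per kb. At 2653 members (70.6%), the density was at or above the 5th percentile of that list.

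In the other knockout lines, where the members are called, the median log2 fold was −0.14 in ORC2KO and −0.08 in ORC5KO cells. The intervals counted were not the same in the 3 lines. Joined with the knockout origin, members had a median width of 524 bp in the ORC2KO table and 531 bp in the ORC5KO table. In the ORC1KO table, where no knockout origin joins them, it was 455 bp. The part of this in the folds was not tested. Down by 1.5-fold were 70 members in ORC2KO (1.86%, against 3.58% of all origins in that table and 5.18% of the WT origins) and 7 in ORC5KO (0.19%, against 0.68% and 1.02%). Up by 1.5-fold were 21 members in ORC2KO (0.56%, against 4.65% and 1.3%) and 8 in ORC5KO (0.21%, against 2.08% and 0.553%). Of the 584 members down in ORC1KO, 30 were also down in ORC2KO and 3 were down in all 3 lines, and 553 were down in ORC1KO and in neither other line. Members have to be on the ORC2KO and ORC5KO lists, so the rule largely sets this small overlap. The same counts over all WT origins are not given here, and nothing is read from the overlap. For 1300 members (34.6%) the 95% Clopper-Pearson interval of the log2 fold lay below 0 in ORC1KO, against 14.5% of all origins in the table and 19.5% of the WT origins. It lay above 0 for 72 members (1.92%, against 14.6% and 7.07%) and included 0 for 2384. In ORC2KO the interval lay below 0 for 462 members (12.3%, against 11.2% of all origins in that table and 15.7% of the WT origins) and above 0 for 93 (2.48%, against 10.1% and 6.62%). In ORC5KO it lay below 0 for 194 members (5.17%, against 4.76% and 6.93%) and above 0 for 47 (1.25%, against 5.84% and 3.8%).

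**Figure D1:**
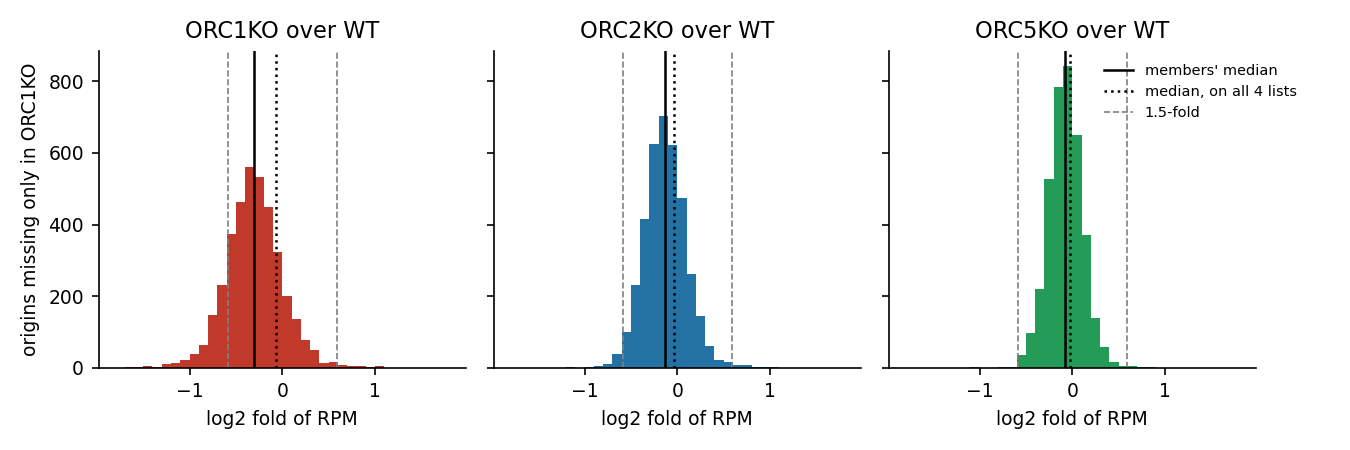
Log2 fold of RPM over WT for the 3756 origins missing only in ORC1KO, in the tables of ORC1KO, ORC2KO and ORC5KO, with the number of origins on the y axis. The solid line is the median of the members (−0.31, −0.14 and −0.08), the dotted line that of WT origins on all 4 lists (−0.07, −0.04 and −0.02), and the dashed lines mark 1.5-fold. The ORC1KO distribution lies farthest to the left, and most of it is inside the 1.5-fold lines. Reads were counted over the WT origin alone in ORC1KO, and over the wider joined origin in the other lines.

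**Figure D2:**
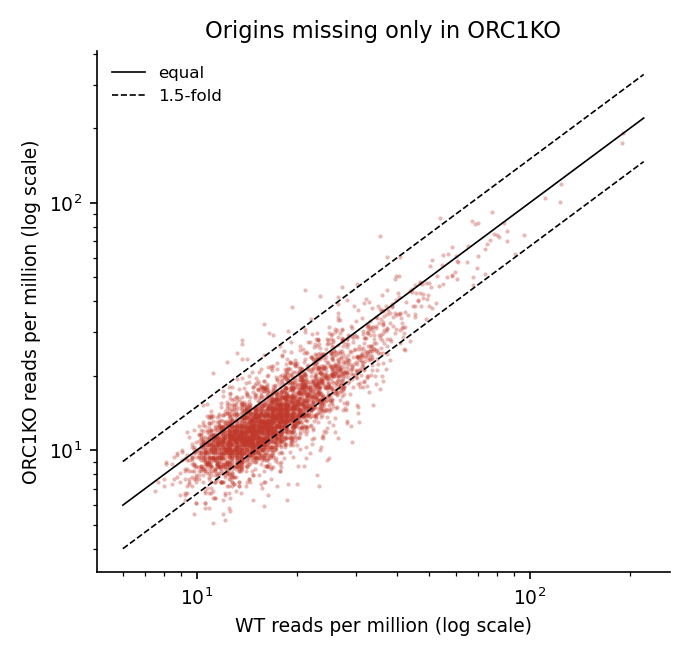
WT RPM (x axis) against ORC1KO RPM (y axis) of each of the 3756 members on log axes, with lines for equal values and for 1.5-fold. Most members lie between the equal line and the lower 1.5-fold line, and the members with the most reads lie near the equal line.

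Members with many WT reads were few, and their median in ORC1KO was close to that of all WT origins of that depth. The 61 members with at least 300 WT reads had a median log2 fold of −0.13, and all WT origins with at least 300 had −0.12. By the 1.5-fold rule 0 of the 61 were down (which allows a share of up to 5.92%, upper Wilson limit), against 1.98% of all WT origins with that many reads. The member with the most WT reads per kb, chr9:88534012-88535327, covers a CpG island and an exonic UTR at the start of NXNL2, a thioredoxin-like gene of the retina. It had 1227 WT reads and 1276 ORC1KO reads, or 191.2 and 190.7 RPM. Its log2 fold was −0.0039, with an exact 95% interval (Clopper-Pearson) of −0.12 to 0.11. Its ORC2KO and ORC5KO log2 folds were −0.03 and −0.05, and the nearest origin on the ORC1KO list is 176436 bp away. The next in density, chr1:2797751-2799188 in an intron of TTC34, had 1214 WT and 1162 ORC1KO reads (log2 fold −0.12, −0.24 to −0.0063). The third, chr19:16896710-16897766 over an exon of CPAMD8, had 711 and 699 reads (−0.08, −0.24 to 0.07). The fourth, chr19:866790-867111 in an intron of CFD, which encodes complement factor D, had fewer, with 204 and 143 reads (−0.57, −0.89 to −0.26). At the first 3 of these, WT and ORC1KO densities differed little and the origin was still not on the ORC1KO list. The nearest listed ORC1KO origin was 176436, 49792 and 58810 bp away from these 3. On the WT list no origin lay farther than 26017 bp from the next. Whether isolated peaks were left off the lists was not tested. The files give no peak score that would show how near such an origin came to being called.

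The 6 members with the lowest ORC1KO log2 fold were chosen among the 3753 members whose WT and knockout reads summed to 100 or more in every table. Of these, 5 lie in the first 1.5 Mb of chromosome 7. The lowest, chr7:1453907-1454497 in an intron of MICALL2, had 149 WT and 48 ORC1KO reads, or 23.2 and 7.17 RPM (log2 fold −1.69, −2.20 to −1.22). In the other tables it had 153 WT and 141 ORC2KO reads (−0.35) and 149 WT and 173 ORC5KO reads (−0.09). The origin chr7:922520-922873 in introns of ADAP1 and COX19 had a log2 fold of −1.53 (147 WT and 53 ORC1KO reads). The origin chr7:1061567-1062059 in an intron of C7orf50 had −1.45 (188 WT and 72 ORC1KO reads). The origin chr7:518430-519015 covers exonic UTR sequence at the start of PDGFA, a platelet-derived growth factor, and had −1.43 (158 and 61 reads). The member outside chromosome 7, chr12:1529812-1530309, lies over a CpG island and UTR sequence of a further transcript at WNT5B, which encodes a WNT ligand. It had 128 WT and 49 ORC1KO reads (−1.45, −1.95 to −0.96), and, unlike the 4 described on chromosome 7, its intervals lay below 0 in both ORC2KO (−0.77, −1.18 to −0.37) and ORC5KO (−0.67, −1.06 to −0.28).

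The 4 members with the highest ORC1KO log2 fold share an extreme GC skew and are higher in all 3 knockout lines. The origin chr5:2219167-2219791, which is 331930 bp from IRX4, had 136 WT and 298 ORC1KO reads (1.07, 0.77 to 1.37), a GC skew of −0.95, and log2 folds of 0.74 in ORC2KO and 0.66 in ORC5KO. The origin chr7:157765224-157766503 in an intron of PTPRN2 had 228 and 493 reads (1.05, 0.82 to 1.29), a GC skew of −0.97, and log2 folds of 1.03 and 0.88. The origins chr7:51362297-51362882, which is 45478 bp from COBL, and chr20:7903494-7903921 in an intron of HAO1, the glycolate oxidase gene, each had a log2 fold of 1.02, with GC skews of −0.94 and 0.82. These origins had more reads in ORC1KO than in WT and were still not on the ORC1KO list, with the nearest listed ORC1KO origin 33471 to 512021 bp away. No origin of the WT list lay farther than 26017 bp from the next, and the part of such isolation in their absence was not tested.

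**Figure D3:**
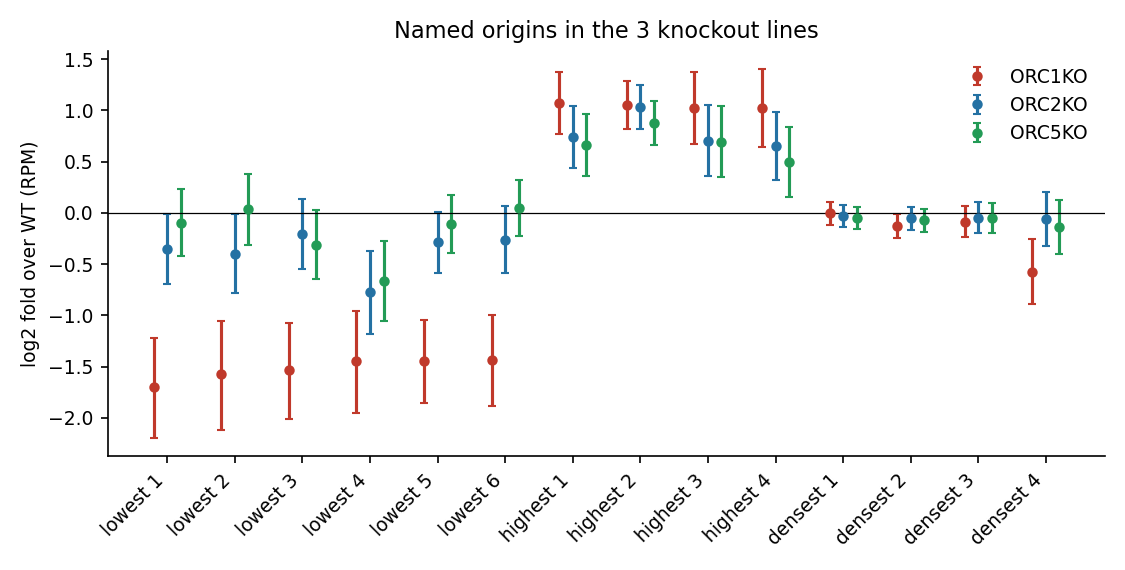
Log2 fold over WT of the 14 named members (6 lowest and 4 highest in ORC1KO, and the 4 with the most WT reads per kb), in each of the 3 knockout lines, with 95% Clopper-Pearson intervals that cover counting error only. The 6 lowest are at −1.69 to −1.43 in ORC1KO and at −0.77 to 0.04 in the other lines, the 4 highest are above 0 in every line, and the 3 densest lie near 0 in all of them.

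Sequence was not used by the rule directly, and it differed between members and other WT origins. It was not independent of the reads behind the lists, however. The ORC1KO log2 fold had a Spearman correlation of −0.39 with GC content and 0.50 with absolute GC skew over all WT origins. Over all WT origins, the share that were members was higher at both ends of the GC range than in its middle. It was 24.0% (17.2% to 32.3%) below 35% GC, 10.4% (9.60% to 11.2%) from 45% to 50% GC, 20.7% (18.2% to 23.4%) from 70% to 75%, and 43.1% (31.2% to 55.9%) at 80% or more, where 25 of 58 WT origins were members. Origins missing only in ORC2KO had another profile, with 7.14% from 40% to 45% GC and 1.07% from 65% to 70%. The median GC content was 56.2% for members (55.8% to 56.6%, an interval from order statistics), 55.96% for origins on all 4 lists, 51.1% for those missing only in ORC2KO, and 51.99% for those missing only in ORC5KO. Members and origins on all 4 lists thus had nearly the same median. Within quartiles of the WT origins by WT reads, all origins below 45% GC were put in 1 group. Its share of members was not higher than that from 45% to 65% GC in any quartile. Over all quartiles the group held 121 WT origins below 35% GC and 2410 from 40% to 45%. It therefore cannot show whether the rise below 35% GC remained within quartiles. From the lowest to the highest quartile, the share of members was 17.7%, 11.7%, 6.48% and 2.64% below 45% GC, and 19.6%, 15.1%, 7.80% and 3.09% from 45% to 65%. At 65% GC or more it was 38.8%, 40.8% and 20.8% in the lower 3 quartiles, whereas in the highest it was 3.78% (2.99% to 4.77%), and this interval overlapped that of the middle GC range (2.66% to 3.58%).

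GC skew was lower in members than in origins on all 4 lists, missing only in ORC2KO or missing only in ORC5KO. The median absolute GC skew was 0.288 (0.282 to 0.293) for members, 0.357 for origins on all 4 lists, 0.372 for origins missing only in ORC2KO, and 0.363 for those missing only in ORC5KO. Other WT origins absent from the ORC1KO list were also low, so low skew was not particular to the members. The median was 0.294 (0.279 to 0.307) for those shared with ORC2KO alone, 0.319 for those shared with ORC5KO alone and 0.309 for those on the WT list alone. Of the WT origins with an absolute GC skew from 0.1 to 0.2, 19.5% were members (18.1% to 20.9%), and of those from 0.7 to 0.8, 2.52% (1.41% to 4.46%). The gradient was present in each quartile of the WT origins by WT reads. In the lowest quartile, 25.8% of origins with a skew under 0.2 and 14.2% of those at 0.4 or more were members, and in the highest quartile the shares were 6.01% and 2.35%. Median absolute TA skew was 0.132 for members and 0.143 for all WT origins.

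**Figure D4:**
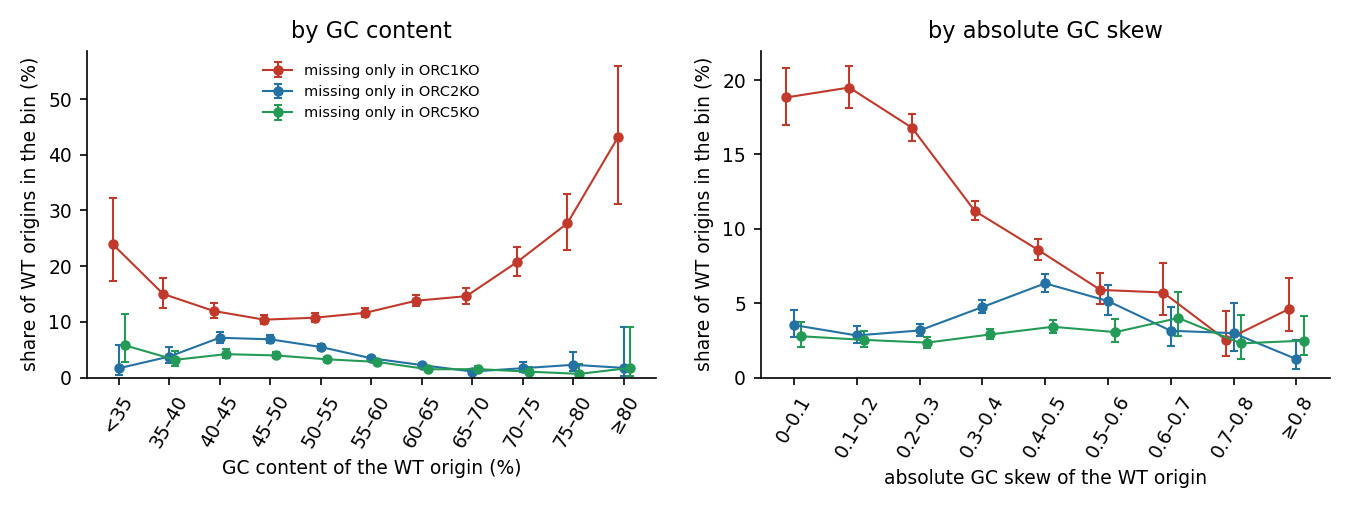
Share of WT origins in each bin of GC content (left) and of absolute GC skew (right) that were missing only in ORC1KO, only in ORC2KO or only in ORC5KO, in percent, with 95% Wilson intervals. The ORC1KO curve rises to 43.1% at a GC content of 80% or more and falls from 18.8% at the lowest GC skew to 4.6% at the highest, while the points of the other curves stay at or below 7.14%.

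Among the members themselves, the more GC-rich had the lower ORC1KO reads. The 648 members with at least 65% GC had a median log2 fold of −0.53 in ORC1KO, −0.13 in ORC2KO and −0.09 in ORC5KO, and 41.4% of them were down by 1.5-fold in ORC1KO. For the 421 members under 45% GC the medians were −0.16, −0.08 and −0.08, and 7.60% were down. Across the 3756 members, the Spearman correlation of GC content with the log2 fold was −0.46 in ORC1KO, −0.06 in ORC2KO and −0.0067 in ORC5KO, a description over origins that share their libraries. The same correlation in ORC1KO was −0.45 over the origins on all 4 lists, so the trend was not particular to the members. After removal of this trend with a running median over GC content, 8.49% of members were down in place of 15.5%, against 3.82% of all WT origins in place of 5.43%. The median log2 fold of the members was then −0.25, that of all WT origins −0.07. The 77 members with an absolute GC skew of at least 0.6 went the other way, with a median of 0.15 in ORC1KO, and 19 of the 22 members up by 1.5-fold were among them. This was not particular to the members either: the 1701 WT origins with such a skew had a median of 0.35, and the Spearman correlation of absolute GC skew with the ORC1KO log2 fold was 0.50 over all WT origins and 0.35 over the members.

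Members lay over CpG islands, the GC-rich promoter-associated stretches that keep their CpGs, more often than other WT origins. The share was 22.5% (845 members, 21.2% to 23.9%), against 18.1% of origins on all 4 lists, 7.91% of those missing only in ORC2KO and 11.96% of those missing only in ORC5KO. With islands counted at the origin's midpoint alone, the shares were 16.8% of members and 10.9% of all WT origins. Members over an island had a median log2 fold of −0.46 in ORC1KO, and 31.0% were down by 1.5-fold. The other 2911 members had a median of −0.27, and 11.1% were down. After correction for GC content the medians were −0.20 and −0.26, so the order of these groups turned. The same split of all WT origins is not given here, so these values are not read as particular to the members. A G-quadruplex motif (a window of 25 bases on either strand past the stricter of the G4Hunter score thresholds tried) was found in 93.8% of members and in 93.7% of origins on all 4 lists. An array of at least 4 consecutive ATCC units, read on both strands and in every rotation, was found in 22 members (0.59%), against 2.07% of all WT origins and 2.93% of those on all 4 lists, and 9 of these 22 were up by 1.5-fold in ORC1KO.

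By gene annotation, with exons from basic transcripts and introns as the rest of the gene, 59.98% of members overlapped a protein-coding gene, close to the 59.89% of all WT origins, but the positions within genes differed. Exons were overlapped by 21.3% of members (20.0% to 22.7%), against 17.8% of WT origins, and introns without an exon by 38.7%, against 42.1%. Within 2 kb of a protein-coding start site were 630 members, or 16.8% (15.6% to 18.0%), against 13.8% of WT origins, 8.52% of those missing only in ORC2KO and 10.6% of those missing only in ORC5KO. The 177 members that covered the start site itself had a median GC content of 70.2% and a median ORC1KO log2 fold of −0.50, and 37.3% of them were down. Members more than 200 kb from a start site had a median of −0.25. The same order was seen over all WT origins, with medians of −0.31 on the start site and −0.06 beyond 200 kb. It was thus not particular to the members. The start site members stand at 680 genes. Their median GC content was 64.8%, against 54.6% for the other members, and its part in these differences was not tested.

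Of all WT origins within 2 kb of a protein-coding start site, 15.1% were members, and lists of genes can be read against that share. Among ORC subunits, licensing and firing factors, 1 of 5 such WT origins was a member. It lies in a CpG island near the start of LRWD1, an ORC-associated protein, and had 83 WT and 101 ORC1KO reads (log2 fold 0.22, −0.21 to 0.66). Among replication fork and polymerase genes the number was 0 of 7, and at classically mapped origin loci 0 of 3. Among cell cycle and checkpoint genes it was 3 of 17. The member at E2F4, a transcription factor of the cell cycle, had 112 WT and 71 ORC1KO reads (−0.72, −1.17 to −0.28), with −0.05 in ORC2KO and −0.23 in ORC5KO. The member at CCNE1, which encodes cyclin E1, had 105 and 81 reads (−0.43, −0.87 to −0.0028).

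Among WNT pathway and colorectal cancer genes, 2 of 14 WT origins at start sites were members. The one at AXIN2, a feedback inhibitor of WNT signalling, had 281 WT and 185 ORC1KO reads (−0.66, −0.94 to −0.39), and it was at −0.32 in ORC2KO and −0.27 in ORC5KO. The one at SOX9, a transcription factor of intestinal crypts, had 146 and 135 reads (−0.17, −0.52 to 0.17). Among intestinal epithelial genes, 2 of 8 were members, and both lie at GATA6, an endodermal transcription factor, with 98 and 84 reads (−0.28) and with 178 and 137 reads (−0.44, −0.77 to −0.11). No WT origin lay at the start of any of the 20 large common fragile site genes. Of the 8 members at listed genes, those at E2F4 and AXIN2 passed 1.5-fold in ORC1KO.

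Members were spread over all chromosomes, from 8.34% of the WT origins of chromosome 8 to 19.5% of those of chromosome X (56 of 287, 15.3% to 24.5%), with 16.9% on chromosome 7. They tended to be neighbours. At 1934 members (51.5%) the next WT origin on at least 1 side was also a member, whereas 18.9% of the other WT origins had a member beside them. Runs of at least 4 members in a row numbered 77 and held 351 members. The longest, 12 members over 623 kb of chromosome 5 around ZSWIM6 (61329045 to 61952253), had a median log2 fold of −0.81 in ORC1KO, −0.06 in ORC2KO and 0.04 in ORC5KO. A run of 7 around MAP3K1, from 56650078 to 56835864 on the same chromosome, had −1.12, −0.19 and −0.08. A run of 8 on chromosome 7, from 102320678 to 102592977, includes the member at LRWD1 and had −0.33, −0.05 and −0.02. This stretch holds near-identical gene copies such as RASA4 and RASA4B, so the placement of its reads is uncertain.

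The runs around ZSWIM6 and MAP3K1 lie in a longer stretch of chromosome 5, from 54 to 70 Mb, in which the ORC1KO list is nearly empty. It holds 53 WT origins, 2 ORC1KO origins, 84 ORC2KO origins and 91 ORC5KO origins. Of the 53 WT origins 32 were members, and 0 were on all 4 lists. All 55 origins of the ORC1KO table in the stretch had a log2 fold below 0, with a median of −0.85, and the 32 members had −0.83 (−1.22 to −0.28), with 27 down by 1.5-fold. The medians in the same stretch were −0.06 in the ORC2KO table and 0.01 in the ORC5KO table. The member farthest from any ORC1KO origin, chr5:64716547-64717107, lies here, with 6.87 Mb to the nearest and 101 WT and 47 ORC1KO reads (−1.16).

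The first 1.5 Mb of chromosome 7 behaved alike, although ORC1KO origins were called there. It holds 118 WT and 74 ORC1KO origins, and 37 of the 118 WT origins (31.4%) were members. The members had a median log2 fold of −1.10 (−1.69 to −0.47) in ORC1KO, −0.10 in ORC2KO and −0.0091 in ORC5KO, and 33 of the 37 were down. The 67 origins on all 4 lists were also low, with a median of −0.77 in ORC1KO and 45 of 67 down. In both stretches, whose bounds were set after the values were seen, origins of other classes were low together with the members, so the absence of a single origin and a shift of the whole stretch in the ORC1KO line cannot be told apart. The 2 stretches hold 69 members and 32 of the 56 members that were down by 2-fold or more. Without them 524 of 3687 members were down by 1.5-fold, or 14.2%, and the median was −0.30.

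**Figure D5:**
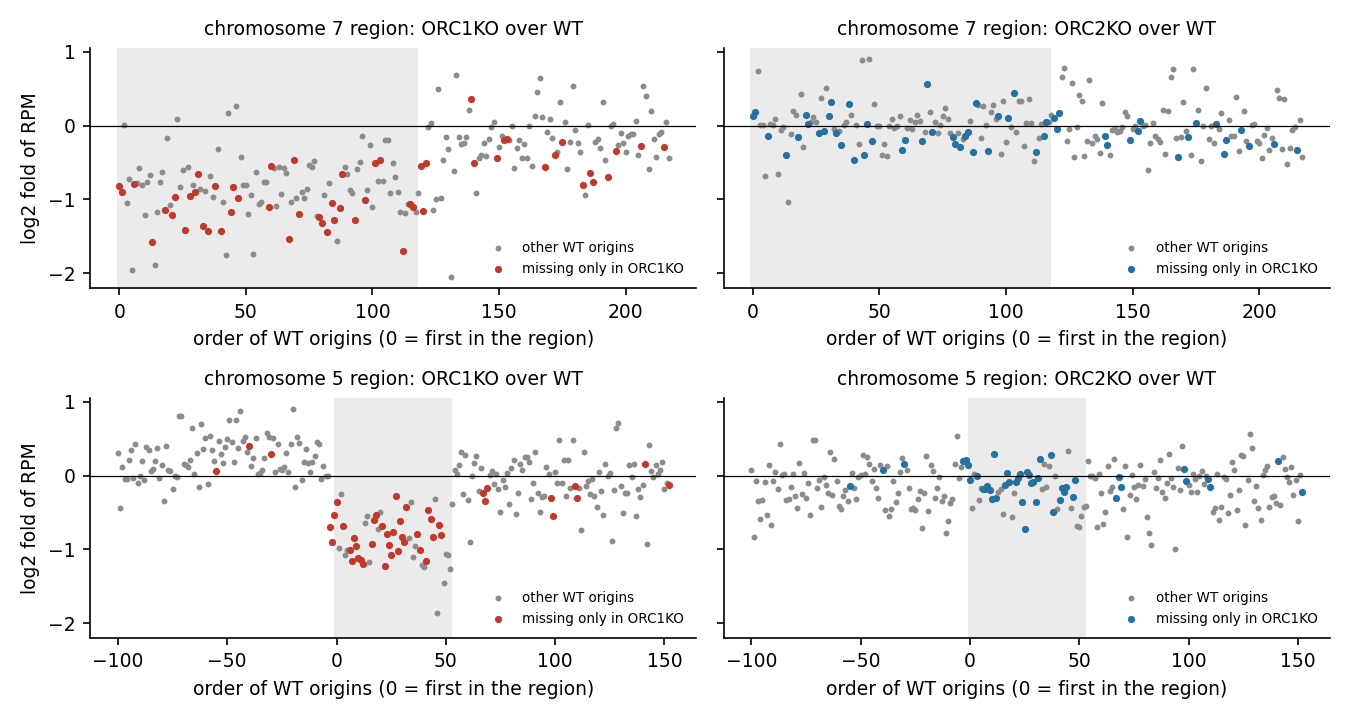
Log2 fold of ORC1KO (left) and ORC2KO (right) over WT for WT origins in order along chromosome 7 (top) and chromosome 5 (bottom), with up to 100 origins on either side of the shaded stretches. Coloured points are members and grey points other WT origins. In the shaded stretches the ORC1KO values of members (medians −1.10 and −0.83) and of most other origins lie below those of most flanking origins, and the ORC2KO values lie around 0. On chromosome 5, most flanking origins before the stretch lie above 0 in ORC1KO.

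Gene bodies with many members were mostly long genes with many WT origins. PTPRN2, a receptor-type phosphatase of secretory granules on chromosome 7, held 12 members among 66 WT origins, with ORC1KO log2 folds from −0.78 to 1.05. RBFOX3, a neuronal splicing factor, held 9 of 51 (−0.74 to −0.24), and CDH4, a cadherin, 7 of 46 (−1.21 to 0.06). In TSPEAR on chromosome 21, 6 of 14 WT origins were members (median −0.52). Behind these, 12 genes had 5 members each. SLC37A3, a solute carrier, stood first among them by share, since all 5 of its WT origins were members, with log2 folds from −0.33 to 0.10 and 0 down by 1.5-fold. In NEBL, which encodes the muscle protein nebulette, 5 of 7 were members (median −0.10).

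ORC1KO origins in the neighbourhood were more frequent than the counterparts of the other sets. An ORC1KO origin lay within 1 kb of 255 members (6.79%), within 5 kb of 889 (23.7%) and within 10 kb of 1529 (40.7%), and the median distance was 15786 bp. For origins missing only in ORC2KO, an ORC2KO origin lay within 5 kb of 13.1%, and for those missing only in ORC5KO, an ORC5KO origin lay within 5 kb of 9.99%. WT origins were also spaced differently around these sets. The median distance to the next WT origin was 7685 bp for members, 9307 bp for those missing only in ORC2KO and 17644 bp for those missing only in ORC5KO. The part of this spacing was not tested. Of the 255 members with an ORC1KO origin within 1 kb, 59 had one that was not on the WT list. In ORC2KO and ORC5KO, by contrast, the counterpart covered the member closely. The ORC2KO origin covered a median of 95.8% of the member and the ORC5KO origin 97.2%, and 99.1% and 99.4% of members were covered for at least 50% of their length.

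Few origins were near the limit of the rule. The member closest to an ORC1KO origin, chr17:1967293-1967838, was 4 bp away from it, with 129 WT and 93 ORC1KO reads (log2 fold −0.53), and 5 members were within 100 bp. On the other side, the WT origin on all 4 lists with the smallest overlap, chr22:50169083-50169816, shared 47 bp with its ORC1KO counterpart and had 418 and 516 reads (0.24). It was followed by chr20:20363942-20364341 with 97 bp and 450 and 390 reads (−0.27).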

How the data were processed

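SNS-seq was done on 4 lines with 2 replicates each. Per the paper's methods and the submitters' notes, reads were trimmed with Trim Galore 0.6.4, aligned to GRCh38 (hg38) with Bowtie, and peaks were called with MACS2 in each replicate and kept if found in both. The paper's methods also group peaks that lie nearer to each other than the median distance between peaks into clusters. On the WT list no origin lay farther than 26017 bp from the next. Whether peaks outside clusters were left off the lists was not tested, so absence from a list need not mean that no peak was called. The origin lists that the authors deposited hold interval coordinates and no score. The 3 tables deposited by the authors hold raw read counts of WT and 1 knockout line in joined origins, with replicates merged. Handling of duplicate reads is not given in the sources used here.

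Members were found by overlap of at least 1 bp. RPM was computed from all reads of the line in the table, and 1.5-fold marked an origin as up or down, without pseudocount or filter. No test was run, since the tables hold 1 value per line. Single-origin intervals are 95% Clopper-Pearson, shares have 95% Wilson intervals, and medians have order-statistic intervals. CpG islands were segments of over 200 bp (GC content of at least 50%, CpG observed over expected above 0.6) from a scan that added 17 at each CpG and took off 1 at any other base. Genes came from GENCODE release 44 and sequence from hg38, into which all intervals fitted. Self-similarity gave repeat periods from 2 to 100 bp. Named origins were, among members with at least 100 reads in each table, the 6 lowest and 4 highest ORC1KO log2 folds and the 4 with the most WT reads per kb, besides members at listed genes and the genes with the most members. Members, lists and rules were chosen with earlier results of these data known. Alternatives covered overlap, width, scaling (edgeR 4.0.16 TMM, median of ratios, shared origins), read filters, GC correction (running median over 1001 origins), removal of 5 Mb blocks whose median was beyond 0.25 (log2), and feature definitions. The 1.5-fold marking was tested on simulated counts with known folds. Some items that these rules select are not reported here. Chromosome Y and other contigs were left out of the members and kept in the totals. Software was R 4.3.3 and Python 3.11.15 with scipy 1.17.1, numpy 2.4.6, pysam 0.24.0, pandas 2.3.3, matplotlib 3.10.9 and numba 0.67.0.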

Additional observations from a re-analysis of the deposited data

How the results depend on the processing

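No paired analysis was possible because the deposited tables merge the replicates of each line, and for the same reason no replicate could be left out. The number of members (3756) was 3501 to 3873 under other overlap rules and 1849, out of 15130 WT origins, with only origins of at least the median width. The median log2 fold kept its sign in all 3 lines under every alternative. In ORC1KO it was −0.30 with median-of-ratios factors, −0.26 with reads in origins of all 4 lists and −0.25 after correction for GC content. In ORC2KO it was −0.10 with TMM, −0.10 with median-of-ratios factors and −0.090 after the GC correction, and in ORC5KO −0.067 with reads in origins of all 4 lists and −0.066 after the GC correction. The share of members down by 1.5-fold in ORC1KO (15.5%) was 14.4% with median-of-ratios factors, 11.6% with reads in shared origins, 8.49% after the GC correction, 14.2% without shifted 5 Mb blocks, 14.2% without the 2 stretches of chromosomes 5 and 7 (added after seeing the data) and 1.49% at 2-fold. Absolute GC skew was 0.265 over 500 bp around the midpoint. CpG islands were at 16.8% of members by midpoint and at 18.4% with islands over 500 bp. G-quadruplex motifs were at 8.12% by midpoint and at 98.5% with a score of 1.2. Start sites within 1 kb were at 13.8%, and an ORC1KO origin lay within 10 kb of 40.7%. Narrower definitions give lower shares by construction, and the causes of the other shifts were not tested. The other 38 values stayed within the interval or 1.5-fold range of the main value. With a median of 105 WT reads, the difference between WT and ORC1KO at a single member was mostly within counting error: the ORC1KO interval of 2384 members included 0.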

Other observations

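Values that stand outside the comparisons are as follows. Of 199 WT origins on chromosome Y and other contigs, 14 (7.04%) met the same rule. Of 19 annotated miRNA hairpins that lie wholly inside a WT origin, 3 lie inside a member. The origin with MIR3917, on chromosome 1, had 163 WT and 108 ORC1KO reads (log2 fold −0.65), that with MIR4442, on chromosome 3, had 144 and 110 (−0.45), and that with MIR4314, on chromosome 17, had 72 and 77 (0.04). A sequence that matched itself at 70% or more of its bases when shifted by a fixed step, a sign of tandem repeats, was found in 28 members (0.75%) and in 1.76% of all WT origins. These 28 members had a median ORC1KO log2 fold of −0.12, against −0.31 for the other members. The measure was added after the data were seen and has no test.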
